A study of Mus musculus with 4 samples.

Results

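Cycling T cells outside the Foxp3 lineage were followed in leukocytes sorted from the inflamed spinal cord of mice. A cell was taken as a T cell when it held at least 2 unique molecular identifiers (UMIs, counted transcripts) of Cd3d, Cd3e and Cd3g together and fewer than 10 of Lyz2. It was taken as cycling when it also held 0 UMIs of Foxp3 and at least 6 of Mki67 and Top2a together. This rule gave 378 cells out of 28598 that passed the cell filters, and out of 6599 T cells with no Foxp3 UMI. Of the 378 cells, 183 and 50 came from the Reg1-MO libraries and 117 and 28 from the control libraries. The members were thus chosen by the measured counts of Cd3d, Cd3e, Cd3g, Lyz2, Foxp3, Mki67 and Top2a, and levels of these genes are not results.

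All mice were C57BL/6 with experimental autoimmune encephalomyelitis (EAE), in which T cells primed against myelin inflame the spinal cord, and the sorted cells were CD45+, a marker of all leukocytes. Reg1-MO animals had received Reg1-MOs and control animals Ctrl MO, given intracranially on day 9 of EAE, and spinal cords were taken on day 16 and digested with collagenase D. There were 2 libraries in each group. MO is read here as morpholino, an antisense oligomer, and Reg1 as Regnase-1, the ribonuclease encoded by Zc3h12a. The labels spell out neither, give no target site or age, and do not say how many animals stand behind a library, so p-values measure the spread between libraries, which may be technical.

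T cells divide after their receptor meets antigen, and dividing lymphocytes in an inflamed tissue are commonly blasts that are passing through DNA synthesis and mitosis. Mki67 encodes a protein of the chromosome surface in dividing cells and Top2a encodes the topoisomerase that untangles sister chromatids. CD8 T cells are the main carriers of granzymes, serine proteases that enter a target cell through pores made by perforin. CD4 T cells drive EAE through cytokines such as GM-CSF, interferon-gamma and interleukin-17. Regnase-1 cleaves messenger RNAs of T cell activation and is itself cut by Malt1 after receptor signalling.

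The libraries held 75472324 to 174552218 UMIs, and 5170 to 8715 cells each passed the filters. Pairs of libraries shared 0.193% to 0.928% of the barcodes of the smaller one. The label fitted the chosen cells: an alpha-beta receptor constant transcript was found in 183 of 183 and 50 of 50 cells of Reg1-MO libraries and in 116 of 117 and 28 of 28 cells of control libraries. Ncr1, a natural killer marker, was found in 3 and 0 cells and in 0 and 1 cell. A cell with 0 Foxp3 UMIs can still hold Foxp3 transcripts that were not captured. Cycling cells held more UMIs. Their median was 18615 and 17461.5 UMIs in Reg1-MO and 19312 and 18651 in control, against 6762.5 and 6906, and 6943 and 6925, in non-cycling T cells, defined as those with 0 UMIs of Mki67 and Top2a. Both classes were set by absolute counts, which deeper cells reach more readily, so this gap follows in part from the rule. The 1651 Foxp3- T cells with 1 to 5 such UMIs were in neither class. Gene levels below are shares of UMIs, so a lower level in cycling cells need not mean fewer transcripts per cell. A Scrublet doublet rule marked 9.84% and 4% of the cycling cells of Reg1-MO libraries and 0.855% and 0% of those of control libraries. In non-cycling T cells it marked 2.82% and 2.21%, and 2.32% and 1.82%.

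Few cells lay near the threshold of 6 UMIs. Cells with 5 UMIs, just outside, numbered 8 and 6 in Reg1-MO and 6 and 2 in control, and cells with 6 UMIs, just inside, numbered 6 and 4 in Reg1-MO and 8 and 2 in control. The median cycling cell held 26 and 28 UMIs of both genes in Reg1-MO and 29 and 30 in control. Of all cells with at least 6 such UMIs, whatever their type, the chosen T cells made up 29.2% and 12.6% in Reg1-MO and 15% and 5.65% in control.

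The cell cycle genes followed from the gate and are given as a description. All 20 of the 20 listed S phase genes and all 20 of the 20 listed G2 and mitosis genes were higher in cycling cells, with median log2 differences of 2.88 and 6.17. Ccna2, the cyclin of S phase and mitotic entry, stood at 228 and 242 counts per 1000000 UMIs (CPM) in cycling cells of Reg1-MO libraries and at 243 and 269 CPM in control libraries, against 0.584 to 0.881 CPM in non-cycling cells. Rrm2, a subunit of ribonucleotide reductase, stood at 368 and 370 CPM in Reg1-MO and 335 and 247 CPM in control, against 3.51 to 7.40 CPM in non-cycling cells. Every cycling cell held UMIs of the S phase list. S phase genes outweighed G2 and mitosis genes in 51.9% and 46.0% of cells of Reg1-MO libraries and in 39.3% and 35.7% of cells of control libraries. The groups did not overlap in this share, which is given with no phase call and no test.

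S phase genes and mitotic genes differed in the letters near their starts, which is why 4 of their promoters are printed. The windows are those of RefSeq on GRCm38.p6, from 250 bases before to 50 bases after a gene's start, written on the gene's strand. The letters TTTGAA, the core of the cell cycle homology region (CHR), were searched on both strands and lay in 13 of 18 windows of G2 and mitosis genes (72.2%), in 2 of 19 windows of S phase genes and in 17.9% of 32851 windows of all genes. The E2F letters TTTGGCGC, TTTCGCGC and TTTCCCGC, also searched on both strands, lay in 8 of 19 S phase windows (42.1%), in 1 of 18 G2 and mitosis windows and in 1.84% of all windows. Capitals mark the match, and a match says nothing of binding. Hmmr, at chr11:40733388-40733687 on the minus strand, encodes a spindle and hyaluronan-binding protein, and Plk1, at chr7:122159185-122159484 on the plus strand, encodes a mitotic kinase. Cdc6, at chr11:98907901-98908200 on the plus strand, loads the replicative helicase, and Uhrf1, at chr17:56304063-56304362 on the plus strand, keeps DNA methylation through replication.
Hmmr: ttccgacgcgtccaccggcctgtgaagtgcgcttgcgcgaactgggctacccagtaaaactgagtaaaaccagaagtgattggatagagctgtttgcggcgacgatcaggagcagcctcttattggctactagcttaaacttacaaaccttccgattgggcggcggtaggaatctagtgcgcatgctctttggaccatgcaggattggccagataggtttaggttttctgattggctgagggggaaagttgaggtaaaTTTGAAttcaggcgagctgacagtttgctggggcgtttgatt
Plk1: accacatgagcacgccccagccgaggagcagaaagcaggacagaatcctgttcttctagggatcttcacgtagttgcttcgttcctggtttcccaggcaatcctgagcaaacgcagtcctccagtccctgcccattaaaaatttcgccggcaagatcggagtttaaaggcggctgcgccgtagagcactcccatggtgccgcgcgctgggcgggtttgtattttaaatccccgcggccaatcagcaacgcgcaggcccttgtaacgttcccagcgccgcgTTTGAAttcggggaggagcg
Cdc6: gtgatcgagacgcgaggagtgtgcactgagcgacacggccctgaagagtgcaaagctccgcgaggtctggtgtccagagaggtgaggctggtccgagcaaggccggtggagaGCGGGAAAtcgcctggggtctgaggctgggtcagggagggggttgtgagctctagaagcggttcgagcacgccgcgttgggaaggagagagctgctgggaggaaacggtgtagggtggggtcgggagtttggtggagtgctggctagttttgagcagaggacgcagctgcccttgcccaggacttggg
Uhrf1: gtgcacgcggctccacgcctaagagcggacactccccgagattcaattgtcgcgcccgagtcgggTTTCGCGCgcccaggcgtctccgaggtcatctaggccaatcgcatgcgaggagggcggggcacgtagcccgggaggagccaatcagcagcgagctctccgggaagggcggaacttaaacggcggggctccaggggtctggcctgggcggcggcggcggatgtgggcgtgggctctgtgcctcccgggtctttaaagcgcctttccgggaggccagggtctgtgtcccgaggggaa
Hmmr, with the CHR letters, stood at 141 and 146 CPM in cycling cells of Reg1-MO and at 162 and 173 CPM in those of control, against 0.188 to 1.76 CPM in non-cycling cells. Cdc6, with the E2F letters, stood at 37.2 and 28.2 CPM in Reg1-MO and 28.7 and 22.9 CPM in control, against 0.390 to 0.844 CPM in non-cycling cells.

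The first comparison was how common cycling T cells were in each group. They made up 7.56% and 4.42% of Foxp3- T cells in Reg1-MO libraries and 5.67% and 2.84% in control libraries. The 95% Wilson intervals of these shares, which like all such intervals here cover counting error and nothing else, were 6.57% to 8.68% and 3.37% to 5.78% in Reg1-MO, and 4.76% to 6.76% and 1.97% to 4.08% in control. The means were 5.99% ± 2.22 in Reg1-MO and 4.26% ± 2.00 in control (SD, n = 2 each), and the groups overlapped. The difference of 1.73 percentage points did not exceed the spread between libraries (exact permutation test, two-sided, p = 0.667, where 2 against 2 libraries allow no p below 0.333). Without the first Reg1-MO library the difference was 0.162 points, and without the second it was 3.30. With a threshold scaled to depth, of at least 3 UMIs of Mki67 and Top2a per 10000 UMIs, an alternative chosen after seeing the data, the shares were 10.6% and 9.20% in Reg1-MO and 8.63% and 6.70% in control. There the groups did not overlap, and the difference was 2.24 points (exact permutation p = 0.333, the smallest possible). Of all cells passing the filters, cycling T cells made up 2.10% and 0.967% in Reg1-MO and 1.45% and 0.422% in control, a difference of 0.598 points (exact permutation p = 0.667). Within each group, the first library held more than the second.

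**Figure D1:**
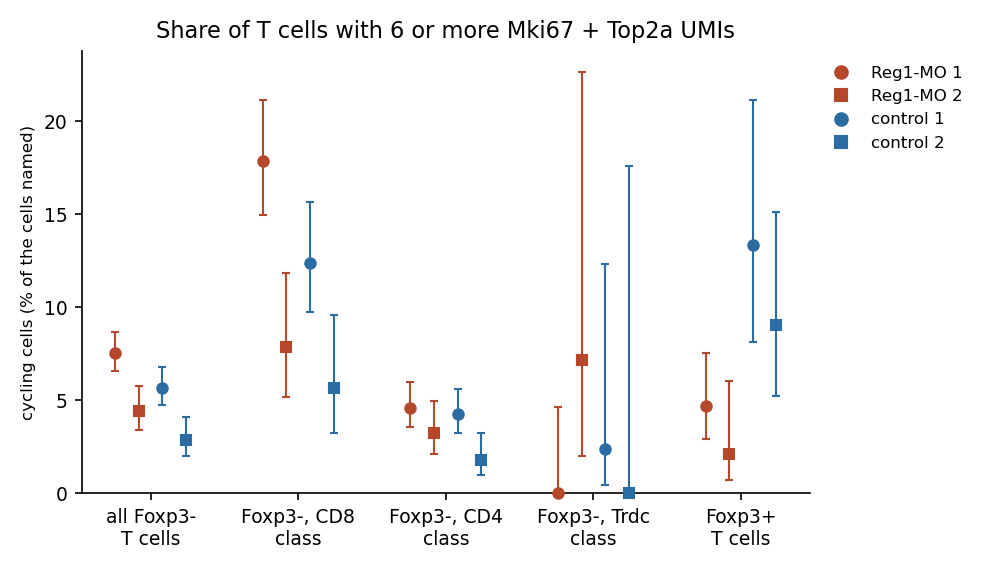
Share of T cells with at least 6 UMIs of Mki67 and Top2a in each library, for all Foxp3- T cells, for their CD8, CD4 and Trdc classes, and for Foxp3+ T cells; bars are 95% Wilson intervals. CD8 cells lie above CD4 cells of the same library in all 4 libraries, and for Foxp3+ cells both Reg1-MO points lie below both control points.

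Foxp3+ T cells, taken by the same rule but with at least 1 Foxp3 UMI, gave another order. They were cycling in 4.71% and 2.11% in Reg1-MO (16 of 340 and 3 of 142 cells) and in 13.3% and 9.02% in control (14 of 105 and 12 of 133 cells). The plot of cycling shares shows these beside the Foxp3- cells. The Foxp3- share thus exceeded the Foxp3+ share by 2.85 and 2.31 points in Reg1-MO libraries and lay 7.66 and 6.18 points under it in control libraries. This difference of differences was not tested. Foxp3+ cells made up 12.3% and 11.2% of T cells in Reg1-MO and 4.85% and 11.9% in control. A Foxp3 UMI is found more readily in a cell with more UMIs, as cycling cells had, and no thinned Foxp3+ share is given.

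Cells were next placed in a lineage by their UMIs. CD4 cells held Cd4 with no Cd8a, Cd8b1 or Trdc, CD8 cells held Cd8a or Cd8b1 with no Cd4 or Trdc, and Trdc cells held the gamma-delta constant gene Trdc with none of the others. CD8 cells were the largest class over the 4 libraries, with 197 of the 378 cycling cells (52.1%), against 130 CD4 cells (34.4%) and 3 Trdc cells (0.794%). By library, CD8 cells made up 57.9% and 40.0% of cycling cells in Reg1-MO (106 of 183 and 20 of 50) and 50.4% and 42.9% in control (59 of 117 and 12 of 28). CD4 cells made up 29.0% and 40.0% in Reg1-MO (53 and 20 cells) and 40.2% and 35.7% in control (47 and 10 cells). Another 11 and 5 cells in Reg1-MO and 5 and 1 in control held transcripts of more than one lineage, and 13 and 3 in Reg1-MO and 5 and 5 in control held none.

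Trdc cells were rare among cycling cells. There were 0 of 183 and 2 of 50 in Reg1-MO and 1 of 117 and 0 of 28 in control. A count of 0 allows a share of up to 1.64% in the first Reg1-MO library and up to 10.7% in the second control library. With cells of other lineages counted too, a Trdc UMI was found in 1 and 5 cells in Reg1-MO and in 2 and 0 in control.

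The make-up differed from that of non-cycling T cells of the same libraries. CD8 cells averaged 47.8% ± 8.06 of cycling cells and 21.2% ± 0.161 of non-cycling cells (SD, n = 4), a difference of 26.6 points that was positive in 4 of 4 libraries. CD4 cells averaged 36.2% ± 5.25 of cycling cells and 53.4% ± 4.62 of non-cycling cells, 17.2 points lower in cycling cells and higher in 0 of 4 libraries. Both had an exact two-sided sign-flip p of 0.125, the smallest that 4 paired libraries can give. Cells with no lineage UMI averaged 8.81% of cycling and 19.9% of non-cycling cells, and cells of more than 1 lineage 5.96% and 2.71%. Non-cycling cells held fewer UMIs, and their make-up is not given at equal depth. The plot of lineage make-up shows that the non-cycling CD8 share lay between 21.1% and 21.4% in every library.

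**Figure D2:**
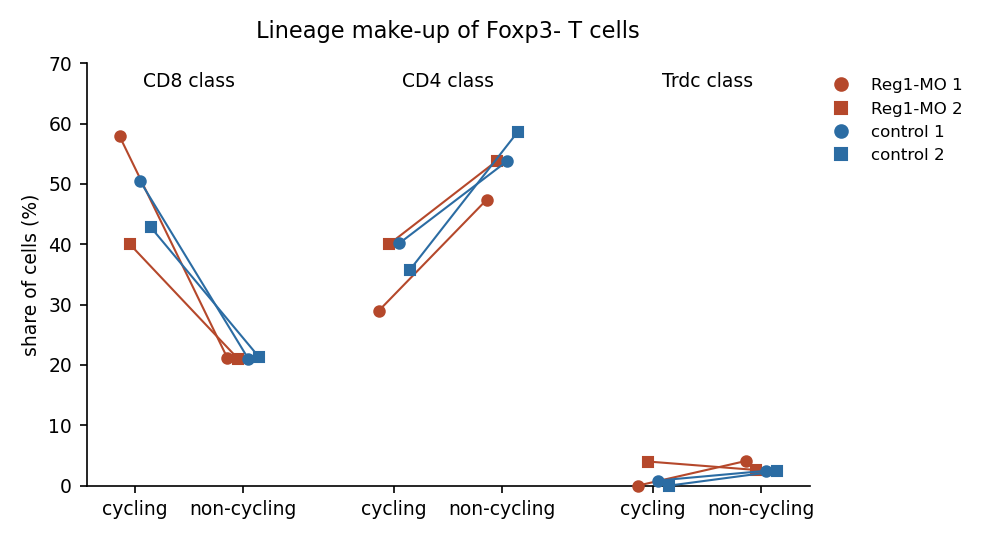
Percent of cycling and of non-cycling Foxp3- T cells in the CD8, CD4 and Trdc classes, with 1 line per library. CD8 lines run from 40.0% to 57.9% in cycling cells down to 21.1% to 21.4% in non-cycling cells, and CD4 lines run the other way.

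Read as a rate, 17.8% and 7.87% of CD8 cells were cycling in Reg1-MO and 12.4% and 5.63% in control, against 4.60% and 3.25% of CD4 cells in Reg1-MO and 4.25% and 1.77% in control. CD8 cells averaged 10.9% ± 5.40 and CD4 cells 3.47% ± 1.27 (SD, n = 4), 7.47 points apart and higher in 4 of 4 libraries (exact sign-flip p = 0.125). Cells thinned to 5000 UMIs each gave rates of 11.9% and 6.52% in Reg1-MO and 9.31% and 2.53% in control for CD8, against 2.28% and 1.63%, and 2.53% and 0.887%, for CD4. Thinning left out cells under 5000 UMIs and kept 562 and 230 CD8 cells in Reg1-MO and 462 and 198 in control, and 879 and 492 CD4 cells in Reg1-MO and 870 and 451 in control. The CD8 rate stayed above the CD4 rate in all 4 libraries after thinning, with means 5.74 points apart. Lineage was read again after thinning, so a cell that lost its lineage UMIs left its class. Thinned cells with no lineage UMI held 24 and 7 cycling cells in Reg1-MO and 14 and 8 in control, against 20 and 8, and 22 and 4, in the CD4 class. They were cycling in 3.90% and 2.81% in Reg1-MO and 3.06% and 4.02% in control, above the thinned CD4 rates. What this loss adds to the gap was not tested.

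At the threshold of 6 UMIs, differences in lineage between Reg1-MO and control libraries lay within their spread. The CD8 share of cycling cells averaged 49.0% ± 12.7 in Reg1-MO and 46.6% ± 5.35 in control (SD, n = 2 each, exact permutation p = 1). The CD4 share averaged 34.5% ± 7.81 in Reg1-MO and 37.9% ± 3.15 in control (exact permutation p = 0.667). The Trdc share averaged 2.00% ± 2.83 in Reg1-MO and 0.427% ± 0.604 in control (exact permutation p = 1). All 3 differences turned round when 1 library was left out: without the first Reg1-MO library the CD8 share was 6.64 points lower in Reg1-MO and the CD4 share 2.06 points higher. At a threshold of 10 UMIs the CD4 share was 28.1% and 35.6% in Reg1-MO and 39.8% and 41.7% in control, without overlap and 8.90 points lower in Reg1-MO (exact permutation p = 0.333, the smallest possible).

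For these shares, neutrophil-gated cells were also counted, with at least 20 UMIs of S100a8 and S100a9, at least 1 of Csf3r and none of Cd3d, Cd3e or Cd3g. Cells with Cd3 UMIs were thus left out, so a low share of T cell genes follows in part from this gate. Neutrophil-gated cells held a Cd4 UMI, a Cd8a UMI or a Trdc UMI in at most 1.46% of cells of any library. Their median depth was 12993.5 and 7172.5 UMIs in Reg1-MO and 9022 and 7730 in control. For granzymes, the share of neutrophil-gated cells with a Gzma UMI was 4.05% and 0.478% in Reg1-MO and 1.93% and 1.27% in control.

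Gzma, the granzyme that cleaves nuclear and mitochondrial proteins of the target cell, stood at 2914 and 864 CPM in cycling cells of Reg1-MO and at 1931 and 833 CPM in those of control. In non-cycling cells it stood at 489 and 152 CPM in Reg1-MO and at 329 and 563 CPM in control. It was higher in cycling cells in each of the 4 libraries and the Reg1-MO and control levels overlapped. Over the 4 libraries it rose in cycling cells by 2.08 ± 0.28 on the log2 scale (SE; edgeR quasi-likelihood test, Benjamini-Hochberg adjusted over all genes, adjusted p = 0.000184).

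Gzmb, which activates caspases, stood at 1170 and 546 CPM in cycling cells of Reg1-MO and 978 and 193 CPM in those of control, against 287 and 111 CPM, and 224 and 131 CPM, in non-cycling cells. It rose by 1.82 ± 0.21 (adjusted p = 6.62e-05, edgeR). Gzmk, typical of memory CD8 cells, stood at 219 and 289 CPM in Reg1-MO and 232 and 180 CPM in control, against 101 and 146 CPM, and 126 and 112 CPM, in non-cycling cells. It rose by 0.91 ± 0.09 (adjusted p = 2.14e-05, edgeR). Gzmm, a granzyme of innate-like lymphocytes, did not pass (log2 difference -0.46 ± 0.21, adjusted p = 0.107, edgeR). Gzmd, Gzme, Gzmg and Gzmn had 0 UMIs in cycling cells, and Gzmf stood at 3.92 CPM or less.

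Most granzyme transcripts sat in CD8 cells. CD8 cells held 82.2% and 60.4% of the Gzma UMIs of cycling cells in Reg1-MO and 93.1% and 96.5% in control. For Gzmb the shares were 90.4% and 74.6% in Reg1-MO and 87.7% and 88.1% in control, and for Gzmk 85.3% and 78.1% in Reg1-MO and 88.7% and 81.8% in control. Among cycling CD8 cells, 89.6% and 75.0% held a Gzma UMI in Reg1-MO and 89.8% and 50% in control, and the median cell held 36.5 and 5.5 Gzma UMIs in Reg1-MO and 29 and 1 in control. Thinned to 5000 UMIs, the shares were 85.8% and 60.0% in Reg1-MO and 84.7% and 41.7% in control. Among cycling CD4 cells, 7.55% and 5% held a Gzma UMI in Reg1-MO and 6.38% and 10% in control, from 4, 1, 3 and 1 cells in that order of libraries. These shares lay above those of neutrophil-gated cells of the same library. Neutrophil-gated cells had fewer UMIs and were chosen without Cd3 UMIs, so they set no floor for Gzma in CD4 cells. In both groups the second library had the lower share in CD8 cells. It also had few such cells, 20 in Reg1-MO and 12 in control, and in the second control library 1 cell held 59.3% of all CD8 Gzma UMIs.

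The rise of Gzma and Gzmb was also measured within the CD8 class, since the class itself was more common among cycling cells. Gzma stood at 3967 and 1405 CPM in cycling CD8 cells of Reg1-MO and at 3536 and 1926 CPM in control, against 1803 and 491 CPM, and 1152 and 2232 CPM, in non-cycling CD8 cells. Gzma was higher in the cycling cells of 3 of the 4 libraries, the second control library being the exception. Within CD8 cells Gzma rose by 1.02 (adjusted p = 0.000678, edgeR) and Gzmb by 0.94 (adjusted p = 0.000677, edgeR), against 2.08 and 1.82 in all lineages together. Gzmk moved by 0.19 and did not pass (adjusted p = 0.223, edgeR), and Gzmm fell by 0.99 (adjusted p = 0.0054, edgeR). Within CD8 cells 2 of 4 tested granzymes were thus called higher and 1 lower, where 18.1% of all genes were called higher and 15% lower. Within CD4 cells 0 of 4 were called, where 12.1% of all genes were called higher and 8.75% lower. The plot of granzymes sets the 4 classes of cells side by side.

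**Figure D3:**
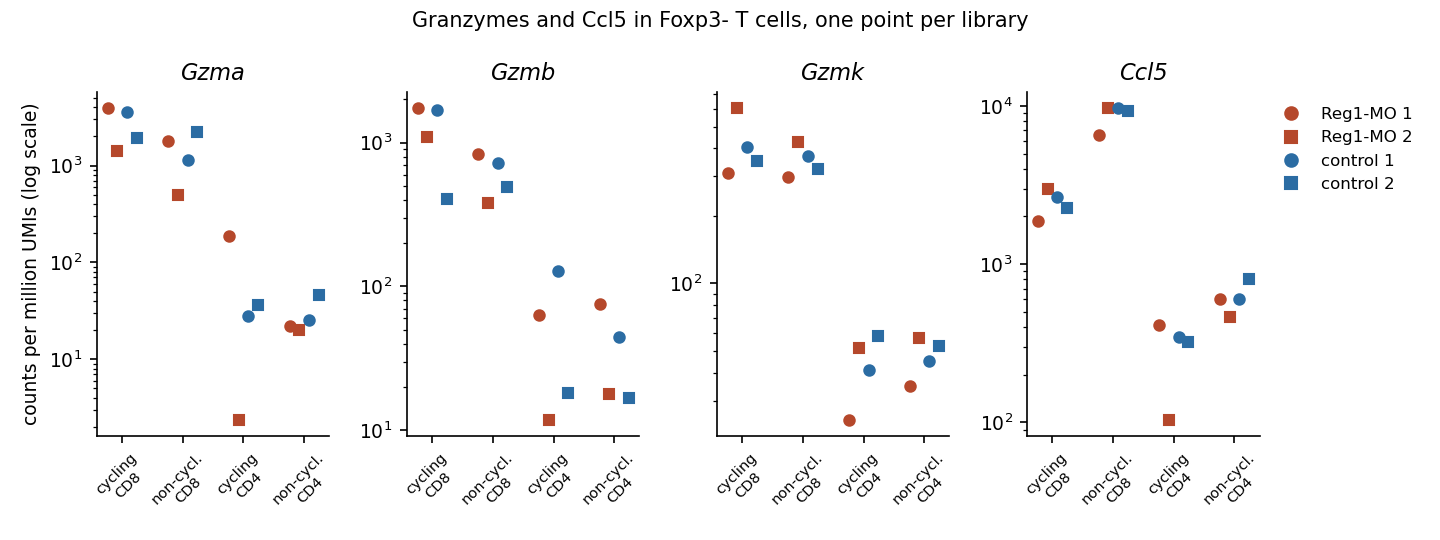
CPM of Gzma, Gzmb, Gzmk and Ccl5 on log axes in cycling and non-cycling CD8 and CD4 cells, with 1 point per library. Gzma and Gzmb stand highest in cycling CD8 cells of most libraries, Gzmk differs by lineage and little by cycling, and Ccl5 is lower in cycling CD8 cells (1883 to 2973 CPM) than in non-cycling CD8 cells (6526 to 9749 CPM).

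Gzmc, a granzyme of strongly stimulated killer cells, rested on 1 cell. It stood at 245 and 4.87 CPM in cycling cells of Reg1-MO and at 13.1 and 1.63 CPM in those of control, and 1 CD8 cell of the first Reg1-MO library held 813 of that library's 874 cycling-cell UMIs (93.0%). The rest of that library was not empty of it: 34 of its 183 cycling cells held a Gzmc UMI, against 3 of 50 in the second Reg1-MO library and 9 of 117 and 1 of 28 in the control libraries. Thinned to 5000 UMIs, the share of cells with one was 9.39% and 6.12% in Reg1-MO and 3.42% and 0% in control. Its rise in cycling cells (4.25 ± 0.84, adjusted p = 0.00232, edgeR) was 1.58 and did not pass without the first Reg1-MO library.

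The cytotoxic partners of the granzymes were mixed. Of 10 listed cytotoxic partner genes, 2 rose and 4 fell in cycling cells, against 20.4% of all 10693 tested genes called higher and 18.9% called lower. Ccl5, a chemokine of effector T cells kept ready as messenger RNA, stood at 1336 and 1439 CPM in cycling cells of Reg1-MO and 1596 and 1242 CPM in those of control, against 2399 and 3220 CPM, and 3098 and 3096 CPM, in non-cycling cells. It fell by 1.08 ± 0.10 (adjusted p = 7.55e-06, edgeR) although its carriers, the CD8 cells, were more common among cycling cells. Within CD8 cells it fell by 1.87 (adjusted p = 4.24e-12, edgeR). Fasl, the ligand of the death receptor Fas, fell by 0.69 ± 0.13, and Srgn, the proteoglycan core of the granule, fell by 0.38 ± 0.08. Perforin, Prf1, stood at 43.1 and 49.8 CPM in cycling CD8 cells of Reg1-MO and 59.5 and 31.3 CPM in control, against 59.9 and 91.0 CPM, and 64.5 and 73.3 CPM, in non-cycling CD8 cells.

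Across all genes outside the rule, 4198 of 10693 (39.3%) were called between cycling and non-cycling T cells, 2182 higher (20.4%) and 2016 lower (18.9%). Rises and falls are of a gene's share of the UMIs and not of its transcripts per cell. Outside the S phase and mitosis lists, the largest rises belonged to other genes of division, such as Esco2, the S phase cohesin acetyltransferase (8.72 ± 0.24 on the log2 scale), and Kif14 and Nuf2 of the mitotic spindle (8.15 ± 0.36 and 7.92 ± 0.29). The largest falls included Kdm5b, a histone H3K4 demethylase (2.78 lower ± 0.15), Csf2, which encodes GM-CSF (2.52 lower ± 0.31), and Il2, the T cell growth factor (2.52 lower ± 0.61). Others among the largest falls were Tnfsf8, the CD30 ligand (2.01 lower ± 0.18), Pde2a, a phosphodiesterase (2.03 lower ± 0.17), and Tcf7 (1.92 lower ± 0.11). The Il2 fall did not pass without the first Reg1-MO library or within CD4 cells.

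Genes that supply growth were higher in cycling cells. Of 13 one-carbon and nucleotide synthesis genes 12 rose, with a list median of 1.51 against -0.02 for all genes. Phgdh, the first enzyme of serine synthesis, stood at 205 and 212 CPM in Reg1-MO and 237 and 268 CPM in control, against 43.2 to 55.4 CPM in non-cycling cells, and rose by 2.20 ± 0.12 (adjusted p = 1.06e-07, edgeR). Psat1, the next enzyme of that path, rose by 2.41 ± 0.15, and Impdh2 of guanine nucleotide synthesis by 1.52 ± 0.10. All cycling libraries lay above all non-cycling libraries for these 3 genes. Of 12 Myc and ribosome-making genes 10 rose (median 0.67), among them the nucleolar proteins Nop56 (1.22 ± 0.11) and Nop58 (1.10 ± 0.13). Of 14 oxidative phosphorylation genes 12 rose and 1 fell (median 0.49). Atp5b, the catalytic subunit of ATP synthase, rose by 0.79 ± 0.09, and Uqcrh of complex III fell by 0.54 ± 0.08. Of 14 glycolysis genes 7 rose and 3 fell, while within CD8 cells, where 18.1% of all genes were called higher, 9 of 14 rose and 0 fell.

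**Figure D4:**
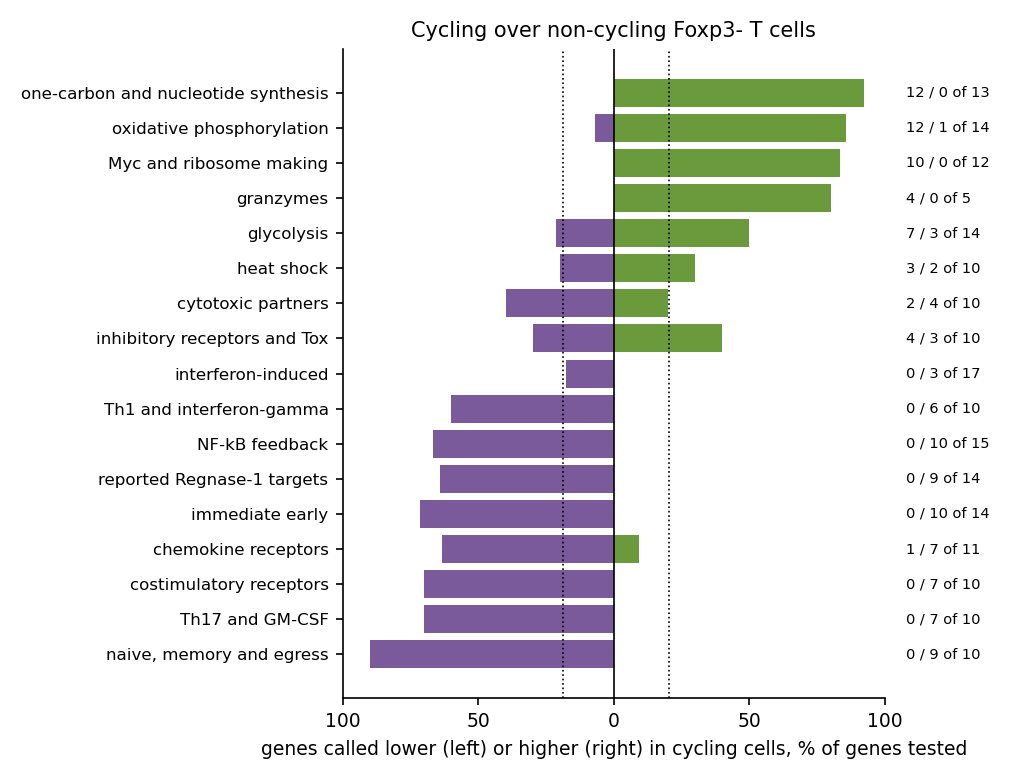
For 17 gene lists, the percent of tested members called lower (left) or higher (right) in cycling over non-cycling Foxp3- T cells at an edgeR adjusted p under 0.05, with the counts at the right as higher / lower of tested. Dotted lines mark the percent called over all genes, 20.4% higher and 18.9% lower; synthesis lists reach right of the line and signalling, cytokine and memory lists reach left.

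Genes of resting and recirculating T cells were lower, as the plot of called shares by gene list shows. Of 10 naive, memory and egress genes 9 fell and 0 rose, with a median of -1.52. Il7r, the interleukin-7 receptor that sustains resting T cells, stood at 144 and 116 CPM in Reg1-MO and 146 and 201 CPM in control, against 460 and 420 CPM, and 569 and 636 CPM, in non-cycling cells. It fell by 1.80 ± 0.09 (adjusted p = 7.25e-08, edgeR). Tcf7 and Lef1, transcription factors of self-renewing T cells, fell by 1.92 ± 0.11 and 1.13 ± 0.10, and Bach2, a repressor of effector genes, fell by 1.57 ± 0.14. The list had 9 of 10 genes lower within CD8 cells, where 15% of all genes were called lower, and 8 of 9 within CD4 cells, where 8.75% were. Of 12 cell cycle inhibitors and quiescence genes 4 rose and 6 fell. The antiproliferative genes Btg1 and Btg2 fell by 1.35 ± 0.09 and 1.29 ± 0.11, while Cdkn2c, a cyclin-dependent kinase inhibitor and E2F target, rose by 2.82 ± 0.13.

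Immediate early and NF-kB feedback genes were lower too, while receptor signalling itself was not measured. Of 14 immediate early genes 10 fell and 0 rose (median -0.68). Junb, an AP-1 subunit, stood at 767 and 898 CPM in Reg1-MO and 738 and 970 CPM in control, against 1791 to 2141 CPM in non-cycling cells, and fell by 1.25 ± 0.08. Nr4a1, a reporter of receptor signalling, fell by 1.17 ± 0.09. Of 15 NF-kB feedback genes 10 fell and 0 rose (median -0.48), among them Tnfaip3, the A20 brake (0.85 lower ± 0.09), and Nfkbiz, an atypical inhibitor (0.87 lower ± 0.09). Within CD8 cells 2 of the 15 fell, near the 15% of all genes called lower there, and within CD4 cells 6 of the 15 fell, where 8.75% of all genes did. The difference between the lineages was not tested.

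Effector cytokine and receptor genes fell in part. Of 10 Th17 and GM-CSF genes 7 fell and 0 rose (median -0.99), where 18.9% of all genes were called lower and 20.4% higher. List counts in this paragraph are of all lineages together, and CD4 cells averaged 36.2% of cycling against 53.4% of non-cycling cells. Il1r1 and Il23r of this list were lower in cycling CD8 than in cycling CD4 cells. What the mix of lineages adds to these counts was not tested. Csf2 stood at 51.8 and 6.82 CPM in Reg1-MO and 32.3 and 31.0 CPM in control, against 199 and 245 CPM, and 185 and 99.9 CPM, in non-cycling cells. Within CD4 cells, its main carriers, Csf2 stood at 157 and 14.1 CPM in cycling cells of Reg1-MO and 79.3 and 69.0 CPM in control, against 311 and 350 CPM, and 290 and 112 CPM, in non-cycling cells. There it fell by 1.79 (adjusted p = 0.0106, edgeR). Of 10 Th1 genes 6 fell and 0 rose (median -0.69), including the interleukin-18 receptor gene Il18r1 (1.22 lower ± 0.10) and Hopx (1.12 lower ± 0.09). Of 11 chemokine receptor genes 7 fell and 1 rose, with Ccr2, which draws cells into inflamed tissue, 0.79 lower ± 0.11. Of 10 costimulatory receptor genes 7 fell, such as Cd40lg (1.40 lower ± 0.10) and Icos (1.02 lower ± 0.10).

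Inhibitory receptors split. Of 10 listed genes 4 rose and 3 fell, where 20.4% of all genes were called higher and 18.9% lower. Within CD8 cells 1 of 9 rose and 4 fell, where 18.1% of all genes were called higher and 15% lower. Havcr2, which encodes TIM-3, stood at 157 and 77.9 CPM in Reg1-MO and 116 and 93.1 CPM in control, against 41.7 to 83.4 CPM in non-cycling cells, and rose by 0.96 ± 0.16. Pdcd1, which encodes PD-1, rose by 0.52 ± 0.11, but did not pass within CD8 or within CD4 cells. Tox, a transcription factor of exhausted T cells, fell by 1.22 ± 0.23 (adjusted p = 0.00179, edgeR).

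Zc3h12a itself took a lower share of UMIs in cycling cells, which held more UMIs, so its transcripts per cell need not be fewer. It stood at 50.4 and 67.2 CPM in Reg1-MO and 50.6 and 39.2 CPM in control, against 91.7 and 102 CPM, and 92.7 and 104 CPM, in non-cycling cells, with no overlap. It fell by 0.90 ± 0.11 (adjusted p = 0.000111, edgeR), and by 0.48 within CD8 cells (adjusted p = 0.0266) and 0.77 within CD4 cells (adjusted p = 0.00981). Of 9 tested genes of the Regnase, Roquin and ZFP36 decay factors 5 fell and 0 rose. Of 14 tested messenger RNAs reported as Regnase-1 targets 9 fell and 0 rose (median -0.76), Csf2, Il2 and Icos among them. Within CD8 cells 3 of 10 of these targets fell and 2 rose, where 15% of all genes were called lower and 18.1% higher. Within CD4 cells 5 of 12 fell and 0 rose, where 8.75% were called lower and 12.1% higher.

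Cycling CD8 and cycling CD4 cells were then compared with each other, with both sums from the same 4 libraries. Of 7162 genes tested, 487 (6.8%) were called, 152 higher in CD8 cells (2.12%) and 335 lower (4.68%). All 3 tested granzymes and 8 of 10 cytotoxic partners were higher. Prf1 stood at 31.3 to 59.5 CPM in cycling CD8 cells and at 1.02 CPM or less in cycling CD4 cells, a log2 difference of 6.54 ± 0.55 (adjusted p = 6.51e-05, edgeR). Gzma differed by 5.72 ± 0.42, Gzmb by 4.54 ± 0.29 and Gzmk by 3.31 ± 0.18. Ccl5 was 3.05 ± 0.31 higher, Nkg7, a granule membrane protein, 1.30 ± 0.14 higher, and Ifitm1, an interferon-induced membrane protein, 2.88 ± 0.33 higher. Cd27, a costimulatory receptor, and Klrk1, which encodes NKG2D, were 2.46 ± 0.32 and 2.34 ± 0.33 higher. The 10 largest falls also held the phagocyte gene C1qc (-4.23) and Lgmn (-4.09). Some cycling cells held at least 10 UMIs of 15 microglia and macrophage genes, as described below. Without them, an alternative chosen after seeing the data, 454 of 6361 genes were called, 168 higher and 286 lower in CD8 cells.

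Cycling CD4 cells held the Th17 receptors and the helper ligand. Il1r1, the interleukin-1 receptor, stood at 0 to 0.928 CPM in cycling CD8 cells, against 93.1 and 70.4 CPM in CD4 cells of Reg1-MO and 143 and 203 CPM in those of control (log2 difference -7.49 ± 0.39, adjusted p = 4.57e-06, edgeR, a fitted value that depends on the prior count because 3 CD8 sums were at 0). Il23r, the interleukin-23 receptor, was 4.92 lower ± 0.44 in CD8 cells, Cd40lg, the ligand by which helper cells license B cells and dendritic cells, 4.82 lower ± 0.44, and Trat1, an adaptor of the T cell receptor, 5.01 lower ± 0.28. Non-cycling cells of the same libraries had the same direction for all 3, with log2 differences of -2.97, -3.95 and -2.97.

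Il17a looked high in cycling CD4 cells of some libraries, at 6.14 and 575 CPM in Reg1-MO and 155 and 567 CPM in control. It came from 3, 2, 2 and 2 cells in the 4 libraries in that order, and 1 cell held 98.4%, 86.0% and 87.8% of the UMIs in the second Reg1-MO and the 2 control libraries. Ifng was spread over more cells: 67.9% and 55.0% of cycling CD4 cells held it in Reg1-MO and 70.2% and 50% in control.

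Metabolic and signalling genes also differed by lineage. Of 14 glycolysis genes 7 were lower in cycling CD8 cells and 0 higher (median -0.58). Hk2, hexokinase 2, stood at 36.2 and 18.4 CPM in CD8 cells of Reg1-MO and 31.3 and 15.7 CPM in those of control, against 65.5 and 141 CPM, and 67.0 and 65.4 CPM, in CD4 cells, with a log2 difference of -1.40 ± 0.29 (adjusted p = 0.0123, edgeR). Pfkl, phosphofructokinase, was 1.01 lower ± 0.18 and Pgk1, phosphoglycerate kinase, 0.62 lower ± 0.12. Pgk1 did not pass without the first control library. The serine and folate enzymes Shmt2 and Psat1 were 0.95 ± 0.16 and 0.85 ± 0.18 higher in CD8 cells. Of 13 immediate early genes 5 were lower and 1 higher, with Junb 1.18 lower ± 0.11 and Nr4a1 1.35 lower ± 0.19. None of the 20 S phase and none of the 20 G2 and mitosis genes was called between the lineages, with medians of 0.07 and 0.06, and 0 of the 20 in each list passing is not proof of equality.

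Reg1-MO and control were compared in the summed cycling cells. Zc3h12a, read as the target, stood at 50.4 and 67.2 CPM in Reg1-MO and 50.6 and 39.2 CPM in control, a log2 difference of 0.23 ± 0.21 (adjusted p = 0.938, edgeR). Morpholinos commonly block translation or splicing, so a transcript count does not check the labels. Of 9326 genes, 51 (0.547%) were called, 47 higher in Reg1-MO (0.504%) and 4 lower (0.0429%), and 683 had an unadjusted p under 0.05. DESeq2 called 72, of which 48 were shared. The same test in non-cycling cells called 0 of 11657 genes, with 1518 at an unadjusted p under 0.05.

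The 47 higher genes were led by transcripts of microglia and macrophages rather than T cells. Slc8a1, a sodium-calcium exchanger, stood at 123 and 100 CPM in Reg1-MO and 0.797 and 1.63 CPM in control (6.73 ± 0.38, adjusted p = 0.000714, edgeR). C1qa, a chain of complement C1q made by tissue phagocytes, stood at 250 and 567 CPM in Reg1-MO and 17.9 and 13.1 CPM in control (4.51 ± 0.42, adjusted p = 0.0046, edgeR). C1qc and C1qb were 4.69 ± 0.33 and 4.59 ± 0.39 higher. Sparc, a secreted glycoprotein of microglia, stood at 54.6 and 110 CPM in Reg1-MO and 1.59 and 0 CPM in control, and Ly86, a partner of a myeloid and B cell receptor, at 143 and 214 CPM in Reg1-MO and 4.38 and 0 CPM in control. Summed over the 8 microglia markers, cycling T cells held 404 and 825 CPM in Reg1-MO and 78.5 and 70.2 CPM in control. The order was not particular to cycling cells: non-cycling T cells held 248 and 328 CPM in Reg1-MO and 114 and 71.7 CPM in control. Over all cells, C1qa itself was 2553 and 2691 CPM in Reg1-MO and 1581 and 1544 CPM in control.

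These transcripts sat in few cells. Cells with at least 10 UMIs of 15 microglia and macrophage genes numbered 19 and 5 of the cycling cells in Reg1-MO (10.4% and 10%) and 4 and 0 in control (3.42% and 0%). They held 87.9% and 97.7% of the C1q UMIs of cycling cells in Reg1-MO and 19.6% and 0% in control. Their median was 30755 and 34857 UMIs in Reg1-MO and 29362 in the first control library, against 16968 to 19167 in the other cycling cells, and the doublet rule marked 9, 2 and 0 of them. In Reg1-MO, 10 and 3 of them were CD4 cells and 5 and 1 were CD8 cells. When they were left out, an alternative chosen after seeing the data, 0 of 8976 genes were called, with 402 at an unadjusted p under 0.05 and a smallest adjusted p of 0.31. The cells were picked by 15 phagocyte genes, C1qa and Sparc among them, after the calls were seen, so lower levels of such genes without them follow from the choice and test nothing. Of the 47 higher genes, 21 were still tested without these cells, and their median log2 difference was 0.42, against 2.65 in all cells, as the plot of called genes with and without them shows. Summed microglia markers were then 102 and 118 CPM in Reg1-MO and 73.6 and 70.2 CPM in control.

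**Figure D5:**
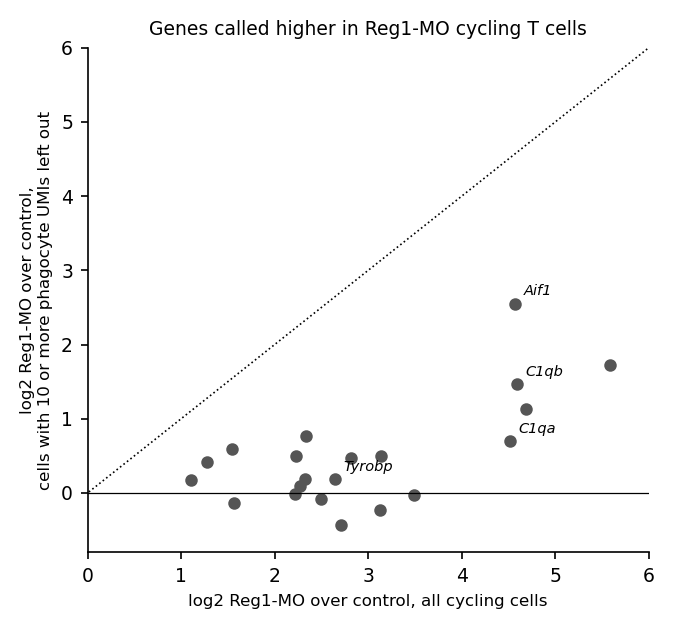
Log2 difference, Reg1-MO over control, of the 21 called higher genes that could be tested in both ways, in all cycling T cells (horizontal) and without the cells that held at least 10 phagocyte UMIs (vertical); the dotted line marks equal values. C1qa stands at 4.51 in all cells and 0.69 without; since the cells were picked by genes of this kind, lower values without them follow from the choice.

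By lineage, the calls came with the CD4 cells. Tested alone, cycling CD4 cells gave 134 calls, of which 46 were among the 51, and cycling CD8 cells gave 5 calls, of which 0 were among them. C1qa stood at 677 and 1357 CPM in cycling CD4 cells of Reg1-MO and 19.6 and 10.9 CPM in those of control, against 37.1 and 7.87 CPM, and 16.4 and 7.83 CPM, in cycling CD8 cells. Leaving out single libraries moved the count from 16, without the first control library, to 264, without the first Reg1-MO library. With the cells of the highest doublet scores removed, 21 genes were called, all 21 among the 51.

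The 4 lower genes included Rbm3, a cold-inducible RNA-binding protein, at 952 and 971 CPM in Reg1-MO and 1631 and 1745 CPM in control (-0.88 ± 0.14, adjusted p = 0.0475, edgeR). Chil3, a chitinase-like protein of myeloid cells, stood at 9.80 and 4.87 CPM in Reg1-MO and 77.3 and 34.3 CPM in control (-2.90 ± 0.42, adjusted p = 0.0265, edgeR), and Ngp, a neutrophil granule protein, at 5.32 and 5.84 CPM in Reg1-MO and 66.1 and 21.2 CPM in control (-3.19 ± 0.50, adjusted p = 0.0423, edgeR). The fourth was a predicted gene with no given name. None of the 3 named passed without the phagocyte-rich cells. Rbm3 lost its call in 7 of its alternatives while its difference stayed between -1.06 and -0.78. Rbm3 and Chil3 were also lower over all cells of the libraries, Rbm3 at 463 and 393 CPM in Reg1-MO and 804 and 678 CPM in control, and Chil3 at 1230 and 1172 CPM in Reg1-MO and 6117 and 9781 CPM in control. Tnfrsf4, the costimulatory receptor OX40, stood at 78.6 and 67.2 CPM in Reg1-MO and 142 and 196 CPM in control, without overlap, and did not pass (-1.22 ± 0.21, adjusted p = 0.0633, edgeR). It passed with DESeq2, with no filter on low counts, at a threshold of 10 UMIs, with a replicate block, in CD4 cells alone and without the first Reg1-MO library.

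No granzyme passed between Reg1-MO and control. Gzma differed by 0.40 ± 0.54 (adjusted p = 0.951, edgeR), Gzmb by 0.47 ± 0.60 (adjusted p = 0.949), Gzmk by 0.20 ± 0.18 (adjusted p = 0.905) and Gzmm by -0.28 ± 0.57 (adjusted p = 0.977). Gzma and Gzmb were lower in the second library of each group than in its first. In the CD8 class alone Gzma differed by -0.03 and Gzmb by 0.40. Gzmc, carried by the 1 cell described above, differed by 3.70 ± 1.26 (adjusted p = 0.511, edgeR) and by -1.03 without the first Reg1-MO library. In simulated data of the same size, 24.5% of genes changed 2-fold and 84.3% of genes changed 4-fold were recovered, so small changes could be missed.

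Among the gene lists, 0 of 17 interferon-induced genes passed, although 17 of 17 lay above 0 with a median of 1.04, against 0.00 for all genes. Without the phagocyte-rich cells the median was 0.86, again with 17 of 17 above 0 and 0 called. Bst2, an abundant member that tethers viruses, stood at 171 and 241 CPM in Reg1-MO and 104 and 111 CPM in control (0.85 ± 0.19, adjusted p = 0.136, edgeR). Of 12 tested messenger RNAs reported as Regnase-1 targets 0 passed and 8 lay above 0 (median 0.10). Of 10 heat shock genes 0 passed and 9 lay above 0 (median 0.32). Of 6 MHC class II genes 0 passed, with a median of 1.79 in all cells, and the 5 still tested had a median of -0.45 without the phagocyte-rich cells.

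Last, the Reg1-MO difference in cycling cells was set against that in non-cycling cells in 1 model, with the library as a term. The test of the difference called 41 of 11330 genes (0.362%), 37 higher in cycling cells (0.327%) and 4 lower (0.0353%). Among them was Gzmc (4.76 ± 0.66, adjusted p = 0.00166, edgeR), which was 1.72 and did not pass without the first Reg1-MO library. Among the 4 lower genes was Tnfrsf4 (-1.15 ± 0.23, adjusted p = 0.0336, edgeR), which in non-cycling cells stood at 217 and 157 CPM in Reg1-MO and 213 and 178 CPM in control. Several of the higher genes were again phagocyte transcripts, such as C1qa (2.75) and Csf1r (2.49). Another higher gene was the chemokine gene Cxcl2 (1.80 ± 0.29, adjusted p = 0.00717, edgeR). Cxcl2 and Tnfrsf4 are both on the list of reported Regnase-1 targets, and they moved in opposite directions. Without the phagocyte-rich cells 2 genes were called, Gzmc (4.91) and the MHC class II gene H2-Eb1 (-3.07), named after their values were seen.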

How the data were processed

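Single-cell RNA was read on the 10x platform in 4 libraries, 2 per group. The authors deposited raw UMI counts per gene and barcode, which per the file headers came from Cell Ranger 5.0.1, and the submitters' processing notes name mm10 and Seurat 4.0. Counts were used as deposited, with Python 3.11.15 and scanpy 1.11.5. A barcode was kept if it had 500 or more UMIs from 200 or more genes, of which mitochondrial UMIs took 10% or less. The membership rule was then applied. The members and gene lists were chosen with earlier results of these data known.

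UMIs were summed per library and cell class and tested with edgeR 4.0.16 in R 4.3.3 (quasi-likelihood F-test, filterByExpr with a minimum count of 10, TMM scaling, Benjamini-Hochberg adjustment over all genes tested, called at an adjusted p under 0.05). Cycling against non-cycling, CD8 against CD4 and the test of the Reg1-MO difference between cycling and non-cycling cells carried the library as a term. Genes of the gate, and the lineage genes for CD8 against CD4, were not tested. All standard errors are of log2 fold changes, and printed CPM are unscaled. Precision follows the number of cells: 28 to 183 cycling cells per library. Shares have Wilson intervals, and a count of 0 a limit of 3 cells, both covering counting error. Shares of cells were also compared after thinning to 5000 UMIs.

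Doublets were scored with Scrublet. Its automatic threshold marked 0 to 421 cells per library and was not used. Cells with the highest scores, at 0.8% per 1000 barcodes, were removed as an alternative. Other alternatives were DESeq2 1.42.0, no filter on low counts, other thresholds, each library left out, the replicate number as a block, single lineages and, added after seeing the data, cells with phagocyte transcripts left out. The tests were checked on simulated data.

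Named genes were the 10 called genes each way with the largest fold change and a mean of at least 20 CPM, without overlap of groups for Reg1-MO against control, leaving out predicted, ribosomal, mitochondrial and receptor segment genes. For a direction with fewer than 5 calls, the 8 smallest p-values were considered. All granzymes, Zc3h12a and up to 4 called members of a list were added, or the 2 most abundant where none was called (1 such gene is not reported here). Il17a, Ifng, Tox, Pdcd1, Uqcrh, Srgn, Cd27, Klrk1 and some other list members were chosen after their values were seen.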

Additional observations from a re-analysis of the deposited data

Results flagged for a closer look

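Foxp3- and Foxp3+ T cells stood in opposite order in the groups. The cycling share of Foxp3- cells minus that of Foxp3+ cells averaged 2.58 points in Reg1-MO (2.85 and 2.31) and -6.92 points in control (-7.66 and -6.18), all libraries of a group moving one way. The difference between the groups was not tested. The Foxp3+ shares rest on 16 and 3 cycling cells in Reg1-MO and 14 and 12 in control, and were not compared at equal depth.

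The Reg1-MO difference itself differed between cycling and non-cycling T cells for 41 genes in edgeR's test of that difference. Gzmc was 1 of them, at 4.76 ± 0.66 on the log2 scale, with 93.0% of the Gzmc UMIs of the first Reg1-MO library's cycling cells in 1 cell.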

How the results depend on the processing

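Differences are Reg1-MO minus control, cycling minus non-cycling or CD8 minus CD4, and the cause of a change was not tested unless fewer genes or libraries explain it by construction. Leaving out single libraries moved the difference in the cycling share of Foxp3- T cells (1.73) between 0.162 and 3.30 points and of all cells (0.598) between 0.032 and 1.16. The share of all cells differed by 1.46 without phagocyte-rich cells, which also shrinks the total. Leaving out single libraries moved the difference in the CD4 share of cycling cells between -8.98 and 2.06 points, in the CD8 share between -6.64 and 11.3 and in the Trdc share between -0.427 and 3.57. The CD4 difference was 0.162 at a threshold of 3 UMIs and -8.90 at 10 UMIs, against -3.46. The 51 genes called between Reg1-MO and control were 368 with no filter, 21 without the highest doublet scores, 0 without phagocyte-rich cells, 5 in CD8 and 134 in CD4 cells, and 16 to 264 with a library left out. Cycling against non-cycling called 2774 genes after thinning and 1948 within CD4 cells, against 4198. CD8 against CD4 called 317 genes with DESeq2, 1072 with no filter and 266 to 508 with a library left out, against 487. The test of the Reg1-MO difference between cycling and non-cycling cells called 13 with DESeq2, 156 with no filter, 21 without doublets, 16 at a threshold of 10 UMIs, 2 without phagocyte-rich cells and 31 to 132 with a library left out, against 41.

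With a replicate block, Reg1-MO against control called 103 genes, 50 of them among the 51. The labels give no shared batch, and same-numbered libraries deviated together with r = 0.114 over 9332 genes in 2 pairs. Without the library term, 3909 genes were called for cycling and 334 for CD8 against CD4.

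With a library left out, the Reg1-MO difference lay between -0.79 and 1.12 for Gzma, -0.25 and 2.09 for Gzmb, -1.03 and 6.27 for Gzmc, and -1.0 and 0.54 for Gzmm. H2-Eb1 in the test of the difference lay between -0.58 and 0.41. In CD8 cells Gzma was -0.028, and in CD4 cells Gzmb was -1.07 and Gzmk -0.51. Cycling against non-cycling, Gzmk was -0.20 within CD4 cells, Gzmm 0.089 after thinning, and Cd8a -0.00089 and Cd8b1 -0.11 within CD8 cells. Of 1159 values of 96 genes under alternatives, 1078 kept direction and call, 54 lost the call, 13 gained it and 14 turned round. Few cells per library limit every comparison.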
